A study of Mus musculus with 6 samples.

Results

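Bone morphogenetic proteins (BMPs) and activins are secreted ligands of the TGF-β superfamily, and the genes described here are 3 BMP ligands (Bmp2, Bmp4 and Bmp7), the activin A subunit Inhba, 2 secreted antagonists (Fst and Grem1) and the 4 ID genes that BMP signaling is known to induce (Id1, Id2, Id3 and Id4). They were chosen by name, as all probes annotated with one of these 10 symbols, which gave 11 probes for 10 of the 36028 genes with a usable probe. Of the 10 genes, 7 entered the test, which required a gene to rise well above background on each array of some group, with 24648 genes tested in all. Some of them changed strongly with CSF-1. Bmp4 fell 9.90-fold and Id2 fell 4.34-fold after 24 h, Fst rose 14.7-fold from a Control level near background and Inhba rose 2.86-fold, whereas the other 3 tested genes (Grem1, Id1 and Id3) did not pass the test.

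The cells were N18-Fms (N18-CFMS in the sample names), a luciferase-expressing subclone of the mouse prostate tumor line C2H from the TRAMP model, in which murine c-fms cDNA was introduced by a retrovirus so that the cells carry the CSF-1 receptor. Labeled cRNA made from total RNA was hybridized to single-color Agilent mouse arrays. Of these arrays, 2 were from untreated cells (Control). Cells kept with recombinant mouse CSF-1 (100 ng/mL) gave 2 arrays at 24 h and 2 at 48 h. The times are those of the sample labels, and the methods section gives shorter ones. All groups, Control included, shared the receptor transgene, the luciferase gene, serum and dihydrotestosterone in the medium, and descent from 1 subclone, so that the results describe 1 clone made to express the receptor. RNA came from 2 independent experiments, and no sample of cells without the receptor was analysed here. The paper detected CSF-1 in medium conditioned by the N18 subclone. It proposes autocrine activation of the receptor where no CSF-1 was added, so Control here means cells without added CSF-1.

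BMPs bind type I and type II serine/threonine kinase receptors that phosphorylate SMAD1, SMAD5 and SMAD9, whereas activins act through related receptors on SMAD2 and SMAD3. Follistatin, encoded by Fst, binds activins with high affinity and BMPs more weakly, and gremlin 1 binds BMP2, BMP4 and BMP7. ID proteins lack a DNA-binding domain and dimerize with E proteins, which keeps these from binding E-box sequences. In the prostate, BMP4 is known as a mesenchymal signal that restrains ductal growth and branching.

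The promoters of both genes that fell at both times, Bmp4 and Id2, are shown with that of Id3, an ID gene that did not pass the test, so that the sequence of genes with unlike responses can be read side by side. Each runs from 250 bases before to 50 bases after the gene's start in RefSeq (build GRCm38.p6), 5′ to 3′ on the gene's strand. They lie at chr14:46390620-46390919 (minus strand) for Bmp4, chr12:25096043-25096342 (minus strand) for Id2 and chr4:136143572-136143871 (plus strand) for Id3. Capitals mark 2 motifs, GGCGCC, the GC-rich element bound by BMP-activated SMADs, and CANNTG, the E-box.
Bmp4: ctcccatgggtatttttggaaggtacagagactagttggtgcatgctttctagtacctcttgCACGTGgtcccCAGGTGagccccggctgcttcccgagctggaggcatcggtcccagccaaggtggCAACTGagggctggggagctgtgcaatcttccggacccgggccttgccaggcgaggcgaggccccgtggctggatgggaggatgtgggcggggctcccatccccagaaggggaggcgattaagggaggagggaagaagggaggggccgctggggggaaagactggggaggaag
Id2: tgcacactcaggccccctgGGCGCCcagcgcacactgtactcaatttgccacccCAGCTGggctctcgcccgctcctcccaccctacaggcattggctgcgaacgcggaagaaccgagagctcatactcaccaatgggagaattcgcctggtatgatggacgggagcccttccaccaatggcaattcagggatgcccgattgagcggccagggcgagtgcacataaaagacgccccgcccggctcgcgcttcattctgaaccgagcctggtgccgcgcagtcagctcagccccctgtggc
Id3: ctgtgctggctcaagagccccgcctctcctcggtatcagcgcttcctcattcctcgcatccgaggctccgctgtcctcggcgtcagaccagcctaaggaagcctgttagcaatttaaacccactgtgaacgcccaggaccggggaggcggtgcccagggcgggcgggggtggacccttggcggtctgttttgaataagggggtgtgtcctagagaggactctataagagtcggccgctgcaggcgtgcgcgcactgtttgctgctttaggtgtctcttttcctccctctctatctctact
A promoter was found for 6 of the 10 genes, and that of Inhba lies inside the gene's RefSeq span, chr13:16004256-16031609, at chr13:16011601-16011900. Both motifs read the same on both strands, and they do not overlap in the sequences shown. GGCGCC occurred in Id2, Grem1 and Id4 and not in Bmp4, Inhba or Id3, and was present in 11.9% of 32841 mouse promoters of this length. The E-box occurred 3 times in Bmp4 and 1 time in Id2, in none of the other 4, and in 72.3% of all promoters. GTCT, the core of the SMAD binding element, was searched on both strands and was in all of the 6 but Id4, and in 88.0% of all promoters. The STAT site TTCNNNGAA was in none of the 6 windows and in 8.30% of all. These matches describe the letters of the windows and no binding was measured.

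Levels are given as the log2 of the background-subtracted signal minus that of the 75th percentile of the same array, so that 0 marks a probe at that percentile, and changes are differences between group means of these levels. A spot is called well above background by the scanner software's own test. Genes were compared with limma's moderated test, 2-sided, on all 6 arrays, and called at a Benjamini-Hochberg adjusted p under 0.05 over the 24648 genes tested. Values in parentheses after a change are the standard error of limma's fit (2 arrays per group) and this adjusted p. With 2 arrays against 2, an exact permutation test of a single gene cannot give a p below 0.333, so the calls rest on a spread shared among genes.

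Bmp4 was the ligand with the largest response. Its level was 2.23 and 2.03 on the Control arrays, -1.21 and -1.14 after 24 h and -0.29 and -0.41 after 48 h. All 4 stimulated arrays lay far below both Control arrays, and the 48 h pair lay above the 24 h pair, without overlap at any step. Groups without overlap are common with 2 arrays each. Against Control they were found for 59% of all genes at 24 h and 58.8% at 48 h, and between the times for 47.9%. The change at 24 h was -3.31 (SE 0.125, adjusted p = 0.00099), a 9.90-fold decrease, and the change at 48 h was -2.48 (SE 0.125, adjusted p = 0.00129), a 5.57-fold decrease. Among the 24648 genes, Bmp4 had the 17th lowest change at 24 h and the 43rd lowest at 48 h. The probe measured lies at chr14:47003391-47003450 on the minus strand (mm9 coordinates of the array annotation), and the gene at chr14:46383525-46390669 in GRCm38.p6. A second Bmp4 probe, at chr14:47003198-47003257 in mm9, was well above background on 0 of 6 arrays and gave no reading of the response, and averaging it in gave log2 changes of -1.46 and -1.36, both still called.

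Inhba, whose product dimerizes to form activin A, moved the other way. Its level was 3.36 and 3.37 in Control cells, 4.57 and 5.20 after 24 h and 3.78 and 4.18 after 48 h. Both stimulated groups lay above the Control arrays, with 48 h between Control and 24 h. The change was 1.52 at 24 h (SE 0.249, adjusted p = 0.0202), a 2.86-fold increase, and at 48 h it was 0.61 (SE 0.249, adjusted p = 0.169), which did not pass. Its probe is at chr13:16118634-16118693 on the plus strand in mm9. The 24 h call was lost without Control replicate 1 (adjusted p = 0.0972) or 2 (0.118), without 24 h replicate 2 (1.20, adjusted p = 0.0832), without 48 h replicate 1 (0.0557) and when dim probes were not removed before adjustment (0.0632).

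Bmp2 and Bmp7, the other ligands, were near background. The Bmp2 probe was well above background on 0 of 6 arrays and the Bmp7 probe on 1 of 6, the first 24 h replicate. Neither entered the test, and the Bmp2 level was not detectable with its probe.

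**Figure D1:**
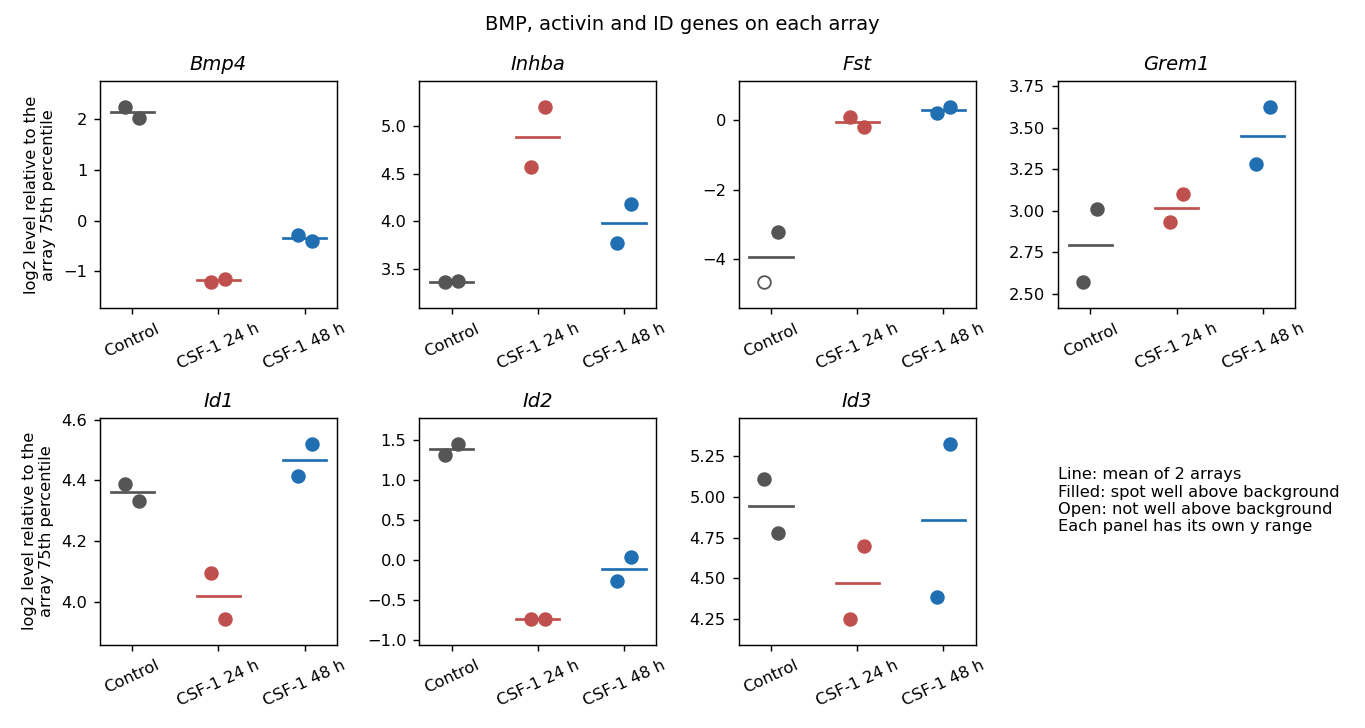
Level of each of the 7 tested genes on each array, as log2 signal relative to the 75th percentile of that array (y axis, own range per panel), for Control, CSF-1 24 h and CSF-1 48 h (x axis). Points are arrays, lines are means of 2 arrays and the open point is a spot not well above background. Bmp4 and Id2 are highest in Control, Fst is lowest there, and the Id3 48 h arrays overlap both other groups.

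The antagonists did not move alike. Fst was at the edge of detection in Control cells, where its level was -4.66 (not well above background) and -3.21, and it was 0.09 and -0.21 after 24 h and 0.20 and 0.37 after 48 h. On the linear scale its signals were 21.7 and 66.1 in Control, 608 and 516 at 24 h and 633 and 780 at 48 h, so the 4 stimulated arrays lay together and far from Control. The change was 3.87 at 24 h (SE 0.466, adjusted p = 0.00939), a 14.7-fold increase, and 4.22 at 48 h (SE 0.466, adjusted p = 0.00752), an 18.6-fold increase. Because the Control arrays differed from each other by more than 1 log2 unit and 1 of them was near background, the size of the change is less certain than its direction. The changes were 3.15 at 24 h and 3.49 at 48 h without Control replicate 1, the array not well above background, 4.60 and 4.95 without Control replicate 2, and 2.51 and 2.82 with normexp background correction, all called. The 24 h call was lost without either 24 h array (3.72, adjusted p = 0.0544 without replicate 1 and 4.02, adjusted p = 0.0721 without replicate 2), and the 48 h call without 48 h replicate 1 (4.31, adjusted p = 0.0704). The Fst probe lies at chr13:115243565-115243624 on the minus strand in mm9.

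Grem1 was at 2.57 and 3.01 in Control, 2.93 and 3.10 at 24 h and 3.28 and 3.62 at 48 h. The 24 h arrays overlapped the Control arrays, and both 48 h arrays lay above every other array. The change was 0.22 at 24 h (95% confidence interval -0.29 to 0.74, adjusted p = 0.517) and 0.66 at 48 h (95% interval 0.15 to 1.17, adjusted p = 0.0938), neither of which passed. At 24 h its direction depended on the scaling, with -0.06 under median centring.

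Of the ID genes, Id2 fell clearly, Id1 and Id3 did not pass the test and Id4 was not tested. Id2 was at 1.32 and 1.45 in Control, -0.73 and -0.73 at 24 h and -0.26 and 0.04 at 48 h. The 4 stimulated arrays lay below both Control arrays, and the 48 h pair again lay above the 24 h pair. Groups did not overlap for 47.9% of all genes between the times, and for 59% at 24 h and 58.8% at 48 h against Control. The change was -2.12 at 24 h (SE 0.142, adjusted p = 0.00263), a 4.34-fold decrease, and -1.49 at 48 h (SE 0.142, adjusted p = 0.00499), a 2.81-fold decrease, with the 78th and 188th lowest changes of all genes. Without Control replicate 2 the 48 h change was -1.43 (adjusted p = 0.0503). The Id2 probe lies at chr12:25778904-25778963 on the minus strand in mm9.

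Id1, a gene widely read as a sensor of BMP signaling, was at 4.39 and 4.33 in Control, 4.10 and 3.94 at 24 h and 4.41 and 4.52 at 48 h. Its 24 h arrays were the lowest and its 48 h arrays the highest, within a narrow span. The change was -0.34 at 24 h (95% interval -0.63 to -0.05, adjusted p = 0.116) and 0.11 at 48 h (95% interval -0.19 to 0.40, adjusted p = 0.599). Under median centring the 24 h change was -0.62 (adjusted p = 0.034), and with an intensity trend in limma's prior spread its adjusted p was 0.0465, so this call depended on the setting. Id3 was at 5.11 and 4.78 in Control, 4.25 and 4.70 at 24 h and 4.39 and 5.32 at 48 h. Its 48 h arrays lay on either side of both Control arrays and overlapped the 24 h pair, and the changes were -0.47 (95% interval -1.34 to 0.40) and -0.09 (95% interval -0.96 to 0.78), with adjusted p of 0.425 and 0.898. The direction at 48 h turned without Control replicate 1 (0.08) and without 48 h replicate 1 (0.38). The Id4 probe was well above background on 1 of 6 arrays and was not tested.

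Of the 7 tested genes, 4 were called at 24 h (57.1%), 2 higher and 2 lower, where 14% of all genes tested were called (8.02% higher and 5.99% lower). At 48 h 3 of the 7 were called (42.9%), 1 higher and 2 lower, where 14% of all genes were called (6.58% higher and 7.38% lower). At the study's thresholds, an unadjusted p under 0.05 and a 2-fold change, these were again 4 and 3 genes, where 7.68% and 6.49% of all genes passed. On the unadjusted p alone Id1 joined at 24 h and Grem1 at 48 h, where 31.3% and 30.9% of all genes passed. Fst could enter the test only through the stimulated groups, so these shares are a description of the chosen genes. The median change of the 7 tested was -0.34 at 24 h and 0.11 at 48 h, beside 0.04 and -0.04 over all genes, with genes moving in both directions. Both comparisons share the Control arrays.

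**Figure D2:**
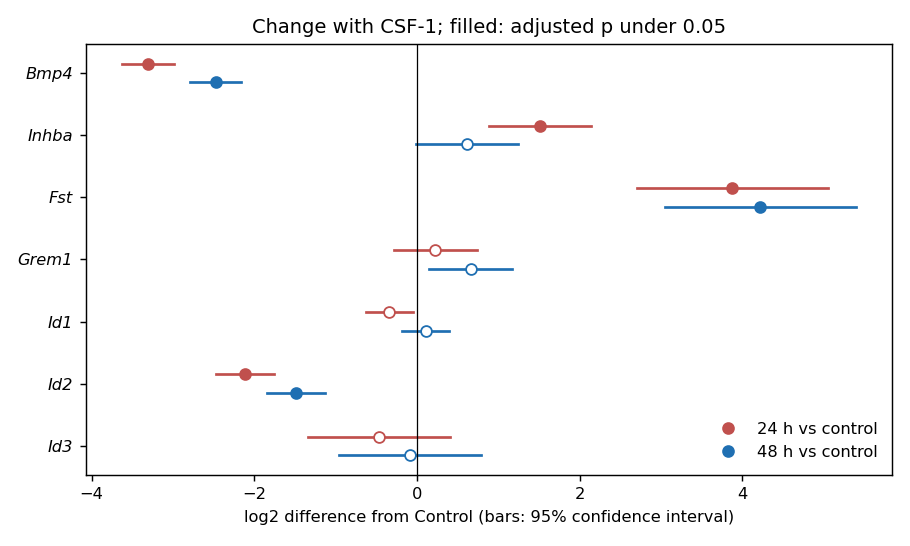
Change of each tested gene against Control on the log2 scale (x axis) at 24 h and 48 h, with bars for 95% confidence intervals of limma's fit. Filled points are called at an adjusted p under 0.05, which holds for Bmp4, Inhba, Fst and Id2 at 24 h and for Bmp4, Fst and Id2 at 48 h.

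The difference between 48 h and 24 h was tested directly, and 0 of the 7 tested genes were called. Of all genes tested 0% were called, and the lowest adjusted p of any gene was 0.0621. At an unadjusted p under 0.05, 13.6% of all genes differed (3358), among them Bmp4, Inhba, Id1 and Id2. With a 2-fold change asked for as well, 2.27% of all genes passed and 0 of the 7. Bmp4 was higher at 48 h than at 24 h by 0.83 (SE 0.125, unadjusted p = 0.000877 by limma, adjusted p = 0.121) and Id2 by 0.63 (SE 0.142, adjusted p = 0.185), so both stood closer to Control at 48 h. Inhba was lower at 48 h, by -0.90 (SE 0.249, adjusted p = 0.236), which also placed it closer to Control. Fst differed by 0.35 (95% interval -0.83 to 1.52, adjusted p = 0.776). With normexp background correction or with an intensity trend, the Bmp4 difference was called (0.71, adjusted p = 0.0401, and 0.83, adjusted p = 0.0299).

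Differences between 2 genes on the same array do not depend on how the array was scaled. The pairs given here were chosen after their values were seen, and each is set to 0 at the Control mean. Bmp4 minus Grem1, the ligand against an antagonist that binds it, was 0.32 and -0.32 on the Control arrays, -3.48 and -3.58 at 24 h and -2.91 and -3.37 at 48 h. Fst minus Inhba, the antagonist against its activin subunit, was -0.72 and 0.72 in Control, 2.82 and 1.89 at 24 h and 3.72 and 3.49 at 48 h. Fst thus rose by more than Inhba on each stimulated array, from a Control mean that holds an Fst spot not well above background. The Inhba probe stayed brighter than the Fst probe on every array. Id2 minus Id1 was -0.09 and 0.09 in Control, -1.85 and -1.70 at 24 h and -1.70 and -1.50 at 48 h, so these ID genes changed unequally on all 4 stimulated arrays.

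**Figure D3:**
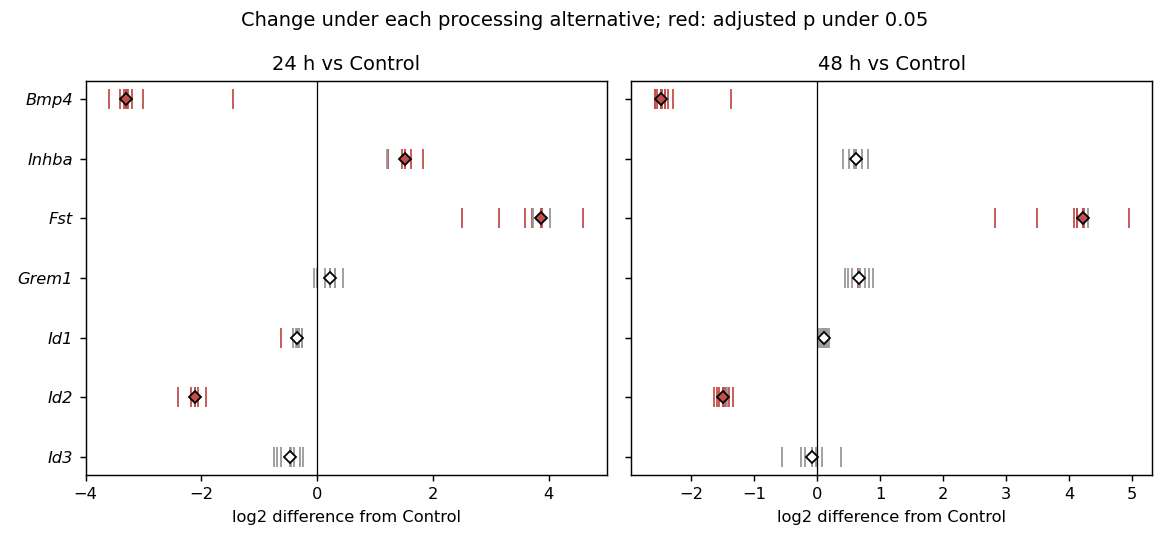
Log2 change of each tested gene against Control (x axis) under each processing alternative, at 24 h (left) and 48 h (right). Diamonds are the values of the report, ticks the alternatives and red marks an adjusted p under 0.05. Bmp4 stays called under all 16 alternatives at both times, with its smallest changes (-1.46 and -1.36) where the dim second probe is averaged in.

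The rest of the pathway was read from 97 other genes in 6 lists, of which 69 were tested. At 24 h 14 of the 69 were called (20.3%, beside 14% of all genes), 6 higher and 8 lower, and at 48 h 10 were called (14.5%), 5 higher and 5 lower. These shares lie at or slightly above that of all genes. Under median centring, which shifted the median of all genes to -0.25 at 24 h and -0.14 at 48 h, the splits were 2 higher and 11 lower at 24 h, and 2 higher and 7 lower at 48 h. Leaving out 1 array lowered the counts as it lowered those over all genes, of which between 1.51% and 9.47% were then called at 24 h and between 2.38% and 7.74% at 48 h. At 24 h the pathway counts fell to 5 and 1 without Control replicates 1 and 2, to 5 and 1 without the 24 h arrays and to 6 and 8 without the 48 h arrays. At 48 h the counts fell to 1 and 2 without the Control arrays, to 3 without 24 h replicate 2 and to 2 without either 48 h array, and were 9 without 24 h replicate 1. Without Control replicate 2 or without 24 h replicate 2, the 1 gene still called at 24 h was Atoh8.

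Of the BMP targets other than ID genes, 3 of 10 tested were called at 24 h (1 higher, 2 lower) and 4 were at 48 h (1 higher, 3 lower). These are 30% and 40% of this short list, where 14% of all genes were called at each time. Atoh8, a bHLH transcription factor gene that BMP signaling induces in several cell types, was at 0.05 and -0.07 in Control, -2.70 and -2.91 at 24 h and -2.45 and -2.63 at 48 h. Its decrease was 6.94-fold at 24 h (-2.80, SE 0.138, adjusted p = 0.00145) and 5.79-fold at 48 h (-2.53, SE 0.138, adjusted p = 0.00138), and it was called under all 16 alternatives at both times. Gata3, a transcription factor gene of luminal epithelia, fell by 1.27 at 24 h (adjusted p = 0.0228) and by 1.37 at 48 h (adjusted p = 0.0196). Tbx3, a T-box gene, rose by 1.16 and 0.99 (adjusted p = 0.00569 and 0.00781). The homeobox gene Dlx5 changed by -0.32 at 24 h (adjusted p = 0.178) and fell by 0.73 at 48 h (adjusted p = 0.0278). Of 16 alternatives, Gata3 kept its call in 11 at 24 h and 10 at 48 h, Tbx3 in 14 and 13, and Dlx5 at 48 h in 8. Leaving out single arrays was among the settings that ended the calls of these 3 genes.

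Among receptors and co-receptors, 4 of 13 were called at 24 h (30.8%) and 3 at 48 h (23.1%), all of them higher. Of all genes, 14% were called at each time, 8.02% higher at 24 h and 6.58% higher at 48 h. Rgmb, a BMP co-receptor, rose by 0.91 and 0.96 (adjusted p = 0.011 and 0.01) and was also called under median centring, though not without some single arrays (adjusted p up to 0.0837 at 24 h and 0.09 at 48 h). The activin receptor genes Acvr2b (0.57 and 0.64) and Acvr1b (0.46 and 0.73) were called at both times, and Acvrl1, a type I receptor for BMP9 and BMP10, at 24 h (0.63, adjusted p = 0.0278) and not at 48 h (0.26, adjusted p = 0.212). None of these 3 was called under median centring at either time, and at each time it was called each lost its call when any of at least 5 of the 6 arrays was left out. Of the type I and type II receptors alone, 3 of 7 tested were higher at 24 h and 2 at 48 h.

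The other antagonists and extracellular modulators gave 3 of 13 called at 24 h, all lower, and 2 at 48 h, 1 higher and 1 lower. These are 23.1% and 15.4% of those tested, where 14% of all genes were called at each time. Crim1, a transmembrane protein that binds BMPs, fell by 1.32 and 1.15 (adjusted p = 0.0107 and 0.0162). Fstl3, which binds activin as follistatin does, fell by 0.81 at 24 h (adjusted p = 0.0312) and was changed by -0.48 at 48 h (adjusted p = 0.107). Fstl1, a secreted protein with a follistatin-like domain, fell by 0.87 at 24 h (adjusted p = 0.012) and was changed by -0.30 at 48 h (adjusted p = 0.153). Nbl1, a BMP antagonist related to gremlin, changed by 0.57 (adjusted p = 0.109) and rose by 0.84 at 48 h (adjusted p = 0.0458). Fst therefore rose at 24 h while both follistatin-like genes named here fell. Of the other ligands, 1 of 15 was called at each time, Lefty2, an inhibitor of Nodal, which fell by 0.74 and 0.70 (adjusted p = 0.0167 and 0.0201). Of 16 alternatives, Crim1 kept its call in 13 at 24 h and 10 at 48 h, and Fstl1 its 24 h call in 12. Fstl3 kept its 24 h call in 8, Nbl1 its 48 h call in 6 and Lefty2 its call in 8 at each time. The calls of these 5 genes were lost without Control replicate 2 and also in other settings.

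Among SMADs and their regulators, 3 of 15 were called at 24 h (20%) and 0 at 48 h, where 14% of all genes were called at each time. Smad6, an inhibitory SMAD gene that BMP signaling induces, was at -1.76 and -1.93 in Control, -3.29 and -4.46 at 24 h and -3.22 and -2.99 at 48 h. The stimulated arrays lay below Control, and the second 24 h array was not well above background. Its change was -2.03 at 24 h (SE 0.378, adjusted p = 0.028) and -1.26 at 48 h (adjusted p = 0.0874), and the 24 h call was lost without 5 of the 6 arrays, 24 h replicate 1 being the exception. At 48 h Smad6 passed the study's thresholds and was called in 6 of 15 alternatives, among them median centring (adjusted p = 0.0404) and normexp (adjusted p = 0.00822). Smad1 rose by 0.71 at 24 h (adjusted p = 0.0272) and Tob1, a negative regulator of BMP SMADs, fell by 0.79 (adjusted p = 0.0289). Smad1 kept this call in 6 of 16 alternatives and Tob1 in 11, and both calls were lost without single arrays. For Smad1 other settings ended the call as well. The E-protein genes Tcf3, Tcf4 and Tcf12, partners of ID proteins, gave 0 calls of 3 tested at either time.

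**Figure D4:**
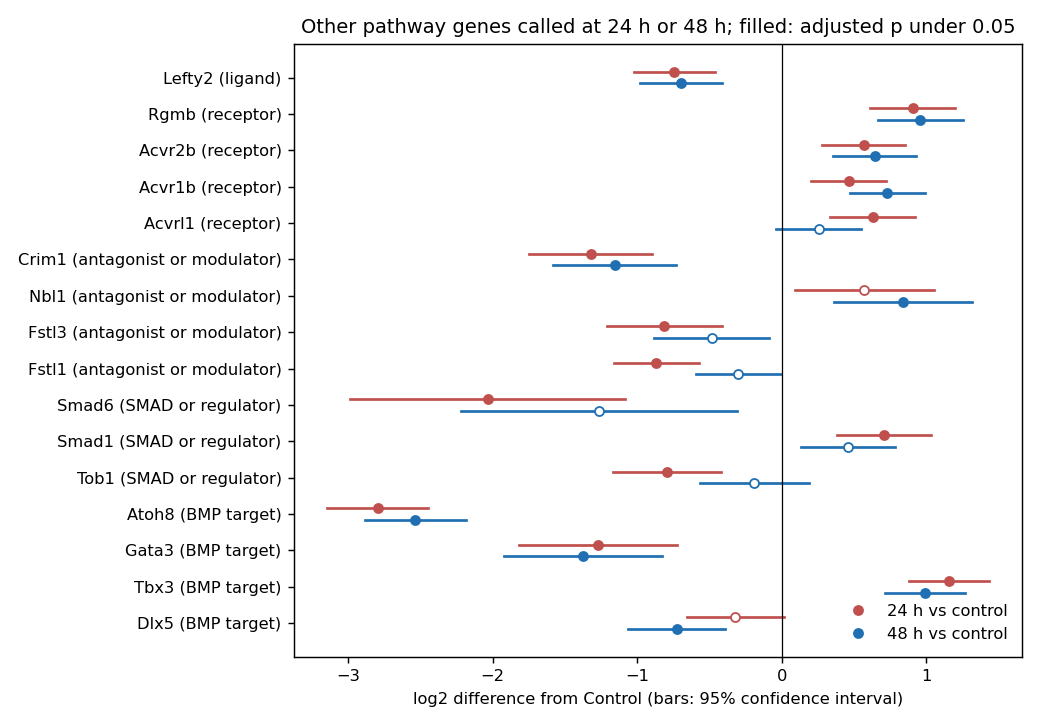
Log2 change against Control (x axis, bars for 95% confidence intervals of limma's fit) of the 16 other pathway genes called at 24 h or 48 h, with the list of each gene in parentheses. Filled points are called at that time; Atoh8 shows the largest decrease at both times, and the receptors lie to the right of 0.

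The genes whose pattern over the 6 arrays was closest to that of each gene called at both times were found by the Euclidean distance of levels after subtracting the Control mean. For Bmp4 they were Omd (distance 0.572), Scx (0.580) and Plk2 (0.691). For Fst they were Il13ra1 (0.580), Samd5 (0.800) and Trim30d (0.971). For Id2 they were Mbnl1 (0.332), Cyp1b1 (0.335) and Npy1r (0.397). These distances are descriptions over 6 arrays of 3 groups and carry no test.

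Facts on the arrays that touch these values are few. Each held 59305 spots other than controls, of which 58.7% to 72.0% were well above background and 0 were saturated, and the 24 h replicate 1 array was scanned on another slide than the other 5. On the shared slide alone, without that array, the 24 h changes were -3.27 for Bmp4 (adjusted p = 0.0124), 1.83 for Inhba (0.0294), 3.72 for Fst (0.0544) and -2.12 for Id2 (0.0213). Csf1r, the transgene's gene, was at 4.88 to 5.13 in Control, 5.12 to 5.34 at 24 h and 4.90 to 4.96 at 48 h, and both stimulated groups overlapped Control. Of 10 epithelial markers, 4 were well above background on all 6 arrays (Trp63, Krt5, Krt8 and Krt14), and 2 were on none (Cdh1 and Hoxb13). Only Trp63 was bright, at 3.81 and 3.77 in Control. Krt5 was at -2.90 and -3.00 there, Krt8 at -3.04 and -2.37 and Krt14 at -3.18 and -3.50. Of 10 fibroblast or stromal markers, 9 were well above background on all arrays, and their summed level, in multiples of the array's 75th percentile, was 666 to 687 in Control, 435 to 447 at 24 h and 414 to 420 at 48 h. Of the 9 tested, 7 were called at each time, 5 lower and 2 higher at 24 h and 6 lower and 1 higher at 48 h. The collagen genes Col1a1, Col1a2 and Col3a1, Pdgfrb and Acta2 were lower at both times, whereas Dcn was higher (4.23-fold and 6.85-fold) and Pdgfra was higher at 24 h (2.51-fold). Postn was 13.4-fold lower at 48 h (adjusted p = 0.0373 by limma) and was not called at 24 h (0.76). The sums were 14.4 to 14.6, 11.03 to 12.84 and 12.7 to 14.6 for the epithelial list, 74.2 to 75.3, 71.2 to 73.1 and 55.3 to 66.0 for 11 macrophage markers (6 well above background on all arrays and Lyz2 on none), and 18.8 to 25.4, 20.5 to 24.0 and 18.7 to 21.5 for 6 endothelial markers (2 on all and 2 on none). Such sums follow their brightest genes. These were Itgam and Csf1r, the transgene's gene, in the macrophage list, Trp63 in the epithelial list and Kdr in the endothelial list. In the stromal list they were Vim, which was not called, Col1a2 and Col1a1. Single members were called. Cdh5 was 14.6-fold and 15.7-fold higher, from Control levels near background of -4.47 (not well above background) and -4.11. It could enter the test only through the stimulated groups, so the size of its change is uncertain. The macrophage markers Mertk (2.40-fold and 2.52-fold) and Cd14 (1.82-fold and 1.61-fold) were higher. Krt8 was 3.95-fold higher at 48 h, with no other call among these 3 lists. The part of these shifts in the changes of the BMP and activin genes was not tested.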

How the data were processed

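Expression was measured in 6 RNA samples of N18-Fms cells on single-color arrays, 2 per group, and groups were taken from the sample labels. Per the file headers and labels, the authors extracted spots with Agilent Feature Extraction 11.0.1 and deposited, for each array, a background-subtracted spot intensity that was not normalized between arrays, together with the mean and local background intensity of each spot and the software's flags. A second file that the authors deposited holds log2 values of fewer probes, with 9 of the 11 probes of the described genes in it and column medians from -0.04 to 0.17. Over 44323 probes, 99.8% of its differences between arrays lay within 0.05 of those of the log2 intensity apart from a constant per array, and a baseline for each probe and the centring were not stated.

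Here, spots flagged as outliers were left out, which removed 303 probes, repeated spots were averaged per probe, and each log2 intensity was set against the 75th percentile of its array. The brightest probe by its mean over all arrays stood for a gene. Tests were 2-sided and made by lmFit and eBayes of limma 3.58.1 in R 4.3.3 (3 residual and 2.39 prior degrees of freedom), with files read by data.table (version 1.17.8), and adjusted p-values are Benjamini-Hochberg values over every gene tested. Before use, the scripts were tested on simulated data. The number of arrays limits the precision. The methods state that RNA came from 2 independent experiments. Same-numbered replicates deviated together only weakly (correlations of 0.13, 0.09 and 0.20), which cannot show whether they were paired. No pairing was assumed, and the replicate number as a block was used as an alternative.

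The genes, the pathway and marker lists and the naming rule were chosen with earlier results of these data known, and 2 genes of the epithelial list are not reported here. By that rule the text names the 10 genes, from each list at most the 4 called genes with the largest mean change, and the 3 genes nearest in pattern to each gene called at both times. Exon and UTR positions of probes were not determined, since no annotation of the array's mm9 build was used here. Alternatives were other normalizations and background correction, the authors' log2 values, other filters and probe summaries, an intensity trend, only the groups compared, the replicate number as a block, other thresholds and leaving out each array.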

Additional observations from a re-analysis of the deposited data

How the results depend on the processing

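The changes of the 7 tested BMP, activin and ID genes were recomputed under each alternative, and of 333 values 313 kept their direction and side of the threshold, 9 lost and 7 gained a call, and 4 turned. For the 16 other pathway genes named, 351 of 510 values did so, 143 lost and 15 gained a call, and 1 turned. Bmp4 was called in 16 of 16 alternatives at both times, Id2 in 16 and 15, Fst in 13 and 14 of 15 (it could not enter where a spot well above background was asked of all 6 arrays) and Inhba at 24 h in 11 of 16. Where no single array was left out, the number of the 10 genes called ranged from 3 to 5 at 24 h and from 2 to 4 at 48 h. Between the times it ranged from 0 to 1, where Bmp4 was the 1 called under normexp background correction and under an intensity trend. Where a group was left with 1 array, a gene could enter the test through that array alone, as Bmp7 did without 24 h replicate 2. The 4 values that turned were Grem1 at 24 h under median centring (-0.059), Id3 at 48 h, which ranged from -0.56 to 0.38 when each array was left out (0.076 without Control replicate 1, 0.38 without 48 h replicate 1), and Id3 between the times, which ranged from -0.088 without 48 h replicate 2 to 0.85 without 48 h replicate 1. The pathway value that turned was Smad1 at 48 h with the mean of a gene's probes (-0.17), where 1 of its 3 probes was well above background on 0 arrays. The cause was not tested for the others.

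The 14 other pathway genes called at 24 h became 6 without a filter on dim probes (97 genes, and all genes, tested), 9 with only the groups compared, 8 at the study's thresholds and 1 to 8 when each array was left out, where 3.67%, 10.3%, 7.68% and 1.51% to 9.47% of all genes were called. The 10 called at 48 h became 3 without the filter, 4 at the study's thresholds and 1 to 9 when each array was left out, where 2.41%, 6.49% and 2.38% to 7.74% of all genes were called. A group left with 1 array is assumed to vary like the others. With the replicate number as a block, 18 pathway genes were called at 24 h and 14 at 48 h (15.4% and 16.1% of all genes), and 4 of the 10 genes at each time, Grem1 joining at 48 h (0.66, adjusted p = 0.0351 by limma). Samples sharing a number were not known to be paired. Grem1 at 48 h was also called under normexp (adjusted p = 0.0274) and an intensity trend (0.0269). Signal over background limits Fst in Control cells and leaves Bmp2, Bmp7 and Id4 without a test under the report's filter.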
